A study of Homo sapiens with 105 samples.

Results

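The genes of glucose uptake, glycolysis and the cellular response to low oxygen were examined in Vk2/E6E7 cells, an immortalized human vaginal epithelial line. They were taken from a named list of 36 genes, and 34 of them had at least 1 probeset that names the gene alone among the 54613 probesets tested, with 75 such probesets in all. SLC16A3, a lactate exporter, and CA9, a carbonic anhydrase, had none and were not analysed here. Cells were treated for 6 h with 5 pro-inflammatory or immunomodulatory compounds (PIC), with 2 non-inflammatory compounds (NIC), or with growth medium (GM) alone. The PIC were the cytokine TNF-α at 40 ng/ml (n = 5), the lipopeptides Pam3CSK4 at 10 μg/ml (n = 6) and MALP2, a macrophage activator, at 200 ng/ml (n = 6), imiquimod (n = 6) and the surfactant nonoxynol-9 (N-9) at 12.5 μg/ml (n = 9). The imiquimod dose stands as 30 mg/ml in the labels, while the study's methods give the same figure in μg/ml, so its unit is uncertain. The NIC were the polymers hydroxyethyl cellulose (HEC) and carboxymethyl cellulose (CMC), each at 1 mg/ml (n = 9 each), and GM was represented by 53 arrays. All groups are cultures of 1 line immortalized with viral oncogenes and hold no separate donors, so p-values measure only the spread between arrays, which may in part be technical.

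Glycolysis converts glucose to pyruvate in the cytosol, and lactate dehydrogenase turns pyruvate to lactate when mitochondria do not use it. Hypoxia inducible factors (HIF) raise the transcription of glucose transporters, of many glycolytic enzymes and of secreted factors such as VEGFA, and prolyl hydroxylases of the EGLN family use oxygen to mark HIF for destruction. HIF binds DNA at a short core motif, written ACGTG or GCGTG, and epithelial cells also alter several of these genes in inflammation, nutrient stress and stress of the endoplasmic reticulum.

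The core motif was searched on both strands in the 250 bases before the start of each gene in RefSeq promoters (GRCh38.p14), which held 29 of the 34 measured genes. BNIP3L, NDRG1, PFKFB2, SLC2A3 and VEGFA had no entry. At least 1 match was found in 18 of these 29 promoters (62.1%), against 43.2% of the 35116 promoters of the table, and 3 or more matches in 6 of them (20.7%), against 7.76% of all promoters. The palindrome CACGTG, which counts as a match on each strand, was in 4 of the 29 (13.8%), against 6.34% of all promoters. BNIP3 had 6 matches, ALDOC and LDHA had 5 each, and ANKRD37, HK2 and PGK1 had 3 each. The promoters below are shown because ANKRD37 and ADM rose with more than 1 treatment, ANGPTL4 rose with MALP2 and fell with N-9, and LDHA combined 5 matches with differences from GM of under 0.2 on the log2 scale. They lie on the forward strand of GRCh38.p14 at chr4:185396591-185396840 (ANKRD37), chr11:10304823-10305072 (ADM), chr19:8363905-8364154 (ANGPTL4) and chr11:18394313-18394562 (LDHA), end at the base before the start of transcription, and carry in capitals every match of ACGTG or GCGTG on either strand.
ANKRD37: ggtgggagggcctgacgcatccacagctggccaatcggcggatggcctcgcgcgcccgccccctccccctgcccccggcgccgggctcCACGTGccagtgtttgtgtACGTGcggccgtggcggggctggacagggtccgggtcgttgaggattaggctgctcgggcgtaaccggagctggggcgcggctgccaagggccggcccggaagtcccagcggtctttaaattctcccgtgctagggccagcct
ADM: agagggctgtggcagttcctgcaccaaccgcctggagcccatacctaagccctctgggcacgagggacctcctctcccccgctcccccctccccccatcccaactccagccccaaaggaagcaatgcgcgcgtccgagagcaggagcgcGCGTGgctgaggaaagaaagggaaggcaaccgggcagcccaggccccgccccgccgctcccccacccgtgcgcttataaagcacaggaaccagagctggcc
ANGPTL4: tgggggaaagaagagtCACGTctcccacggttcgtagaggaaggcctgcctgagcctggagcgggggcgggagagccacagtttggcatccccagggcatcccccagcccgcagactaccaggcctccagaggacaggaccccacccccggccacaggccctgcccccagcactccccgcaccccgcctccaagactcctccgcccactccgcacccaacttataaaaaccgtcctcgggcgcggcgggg
LDHA: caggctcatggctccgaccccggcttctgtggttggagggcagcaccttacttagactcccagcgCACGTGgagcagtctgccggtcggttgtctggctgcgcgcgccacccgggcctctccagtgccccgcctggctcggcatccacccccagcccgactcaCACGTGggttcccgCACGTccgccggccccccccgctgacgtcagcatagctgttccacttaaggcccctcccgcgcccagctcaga
The match nearest to the start lay 143 bases before it in ANKRD37, 101 in ADM, 234 in ANGPTL4 and 73 in LDHA. A match is a description of these letters and was not tested for binding.

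The values are log2 microarray signals. Of 105 deposited arrays, GM replicate 52 was left out because its correlation with every other array was at most 0.05, and TNF-α replicate 6 because it equals the mean of TNF-α replicates 1 to 3 within 7.67e-09, while the remaining arrays correlated at 0.84 or more. Among epithelial markers, KRT5, KRT14, SFN, CDH1, EPCAM and DSG3 had GM means of 12.60 to 15.06 and KRT13 had 9.66, while KRT6A and TP63 had no probeset. The leukocyte markers lay between 2.38 (NKG7) and 7.50 (CD79A), with PTPRC at 4.31, and the fibroblast and endothelium markers between 3.39 (CDH5) and 10.83 (COL1A1), with PECAM1 at 8.19. The summed signal of the 7 measured epithelial markers was 16.63 to 16.92 on treated arrays and 16.59 to 17.00 on GM arrays, that of 8 leukocyte markers 9.30 to 10.34 and 9.37 to 10.75, and that of 12 fibroblast and endothelium markers 10.71 to 12.31 and 10.52 to 12.52. Of these markers CD14 (log2 fold change -1.59) and CSF1R (-0.73) fell with imiquimod and KDR (-1.29) with Pam3CSK4, with limma adjusted p = 0.0252, 0.0023 and 0.0334, and 0.159, 0.0526 and 0.684 with the block for runs described next. Samples of 1 group with consecutive replicate numbers resembled each other: deviations from the group mean correlated at a median r of 0.23 over 101 pairs within runs of 3 consecutive numbers, and at -0.06 over 1440 pairs from different runs. The labels do not say what such a run is, and a fit with the run as a random block was made beside each comparison.

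Differences from GM were tested with limma, with Benjamini-Hochberg adjustment over all 54613 probesets, and a gene was called at an adjusted p under 0.05. N-9 raised 6 of the 34 genes and lowered 10, where 7.35% of all probesets rose and 10.1% fell. Under imiquimod 8 genes were raised and 0 lowered, where 4.68% and 6.19% of all probesets rose and fell, and under MALP2 7 were raised and 1 lowered, where these shares were 3.28% and 3.66%. Pam3CSK4 raised 1 gene and lowered 0 (1.31% and 0.859% of all probesets). TNF-α gave 0 calls by limma (0.526% and 0.196% of all probesets) and 7 genes at an unadjusted p below 0.05, and the methods' analysis of variance, taken with a limit of 2-fold, called 1, PDK4. HEC gave 0 calls (0.328% and 0.465%) and 2 genes at an unadjusted p below 0.05. CMC gave 0 calls (0% and 0.00183%) and 3 genes at an unadjusted p below 0.05, and neither polymer gave a call in the analysis of variance.

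In all, 20 of the 34 genes were called with at least 1 treatment, a share that was not computed for all probesets. Over the treatments, 33 pairs of gene and treatment passed the test. Of these 33, 21 also passed with the run as a random block. These were 12 of the N-9 calls, where 8.83% of all probesets passed with that block, 6 of the imiquimod calls (5.29%) and 3 of the MALP2 calls (3.02%). SLC2A3, NDRG1 and ANKRD37 rose with MALP2, imiquimod and N-9. The ANKRD37 rise with MALP2 did not pass with the random block, and against GM replicates 1 to 9 alone ANKRD37 did not rise with MALP2 or N-9. Rises over 2-fold were found for SLC2A3, VEGFA, ADM and PDK4 with N-9 (4 genes, 2.26% of all probesets), for SLC2A3, VEGFA and NDRG1 with imiquimod (3 genes, 1.74%), and for SLC2A3, NDRG1, ADM and ANGPTL4 with MALP2 (4 genes, 1.34%). No fall in these genes passed 2-fold. Over the 34 genes the median log2 fold change was lowest with N-9 (-0.18) and Pam3CSK4 (-0.15), was -0.06 with CMC, 0.06 with HEC, 0.07 with imiquimod and 0.10 with TNF-α, and was highest with MALP2 (0.15), while the median of all probesets lay from -0.02 to 0.01.

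**Figure D1:**
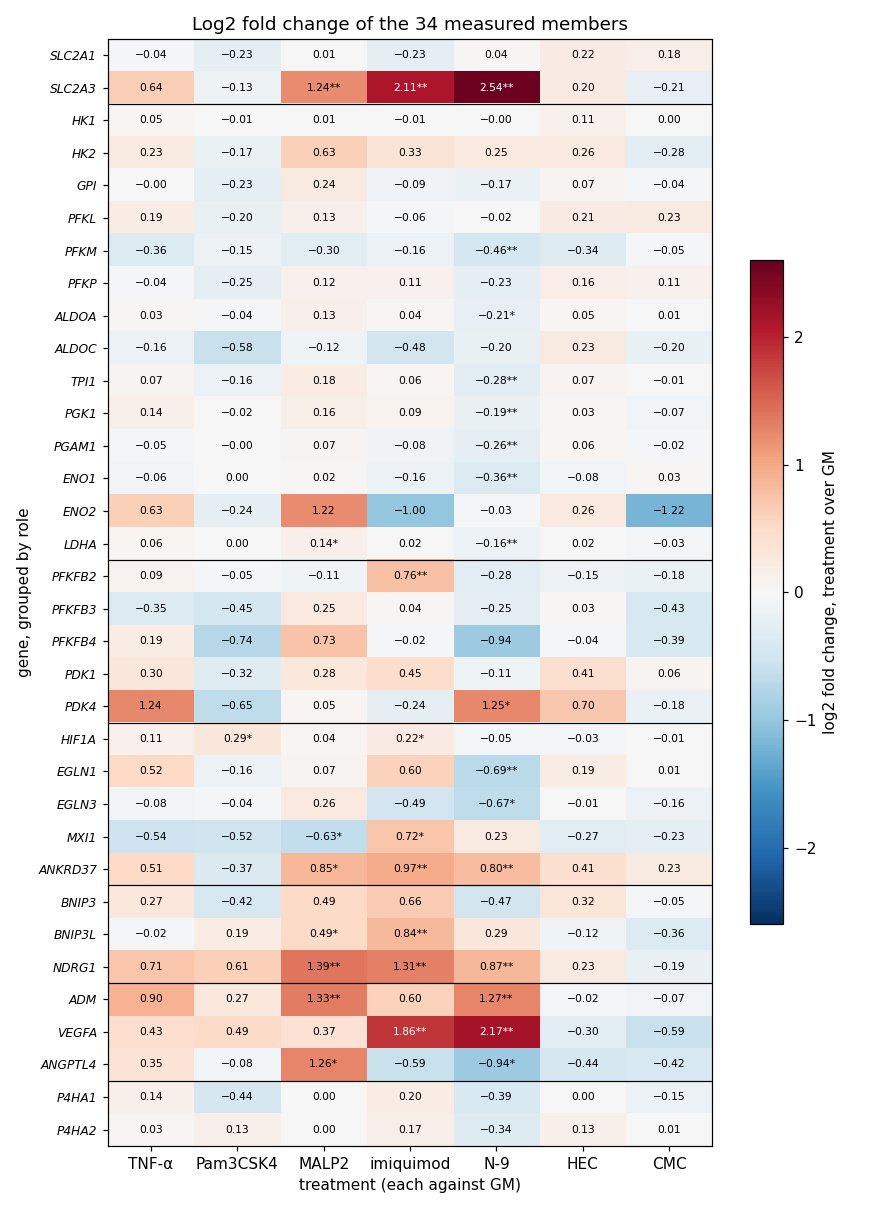
Log2 fold change of each of the 34 measured genes (down, grouped by role between the lines) with each treatment against GM (across), 1 asterisk for a limma adjusted p under 0.05 and 2 where the random block for runs also passed. The strongest colours are SLC2A3 and VEGFA with imiquimod and N-9, at 1.86 to 2.54, and the HEC and CMC columns hold no asterisk.

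SLC2A3, a glucose transporter of high affinity, gave the largest rise of all 34 genes. With N-9 its lowest, median and highest signals were 10.34, 10.87 and 11.76, with imiquimod 9.81, 10.49 and 11.12, with MALP2 9.19, 9.61 and 10.07, and in GM 5.72, 8.32 and 9.66. All 9 N-9 arrays and all 6 imiquimod arrays lay above the highest GM array, and 3 of the 6 MALP2 arrays did. The log2 fold change was 2.54 ± 0.25 with N-9 (SE, 5.83-fold, adjusted p = 1.72e-14), 2.11 ± 0.29 with imiquimod (4.31-fold, adjusted p = 2.77e-08) and 1.24 ± 0.29 with MALP2 (2.35-fold, adjusted p = 0.00239), by limma. All 3 SLC2A3 probesets were called with these 3 treatments, between 0.88 and 2.54, although a near-identical copy, SLC2A14, can contribute to the signal. Every run of N-9 (3.23, 2.00 and 2.41 above the GM mean) and of imiquimod (2.61 and 1.60) was up, whereas without MALP2 replicates 4 to 6 the MALP2 value was 0.95 (adjusted p = 0.220). With TNF-α the 5 arrays read 9.37, 9.55, 9.55, 8.41 and 8.35, a log2 fold change of 0.64 that did not pass, and replicates 1 to 3 stood apart from replicates 4 and 5, which lay near the GM mean of 8.41. SLC2A1, the transporter found in most cells, was not called with any treatment and lay between -0.23 and 0.22.

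Of the 3 secreted factors, VEGFA, which drives growth of blood vessels, rose 4.50-fold with N-9 (log2 fold change 2.17 ± 0.21, adjusted p = 8.43e-15) and 3.62-fold with imiquimod (1.86 ± 0.25, adjusted p = 6.45e-09). Its lowest, median and highest signals were 12.75, 13.33 and 13.67 with N-9, 12.62, 12.97 and 13.42 with imiquimod, and 9.93, 11.14 and 12.94 in GM. The highest GM array was passed by 8 of 9 N-9 arrays and 3 of 6 imiquimod arrays, so both groups overlapped with GM. All 3 other VEGFA probesets also rose with N-9 (2.51 to 3.47) and 2 of 3 with imiquimod, where the third read 0.60. MALP2 arrays lay at 11.01 to 11.84, and MALP2, Pam3CSK4 and TNF-α gave 0.37, 0.49 and 0.43, none of which passed.

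ADM, which encodes the vasodilator peptide adrenomedullin, rose 2.51-fold with MALP2 (1.33 ± 0.23, adjusted p = 9.86e-06) and 2.41-fold with N-9 (1.27 ± 0.19, adjusted p = 1.18e-07). Its lowest, median and highest signals were 12.74, 12.99 and 13.30 with MALP2, 12.33, 13.09 and 13.39 with N-9, and 10.57, 11.92 and 12.97 in GM. MALP2 had 3 of 6 arrays and N-9 5 of 9 above every GM array. With TNF-α the arrays read 12.55, 12.65, 12.52, 12.46 and 12.75, a log2 fold change of 0.90 (adjusted p = 0.0610), and with imiquimod the value was 0.60 (adjusted p = 0.0757). All 5 TNF-α arrays stood above the GM median and below its highest array.

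ANGPTL4, a secreted inhibitor of lipoprotein lipase, moved in opposite directions with 2 treatments. Its arrays had a lowest, median and highest signal of 9.70, 10.29 and 10.94 with MALP2, 7.13, 8.35 and 8.74 with N-9, and 6.47, 9.01 and 11.11 in GM, so both groups lay inside the range of GM. It rose 2.40-fold with MALP2 (1.26 ± 0.40, adjusted p = 0.0375) and fell with N-9 (-0.94 ± 0.34, adjusted p = 0.0395). With the run as a random block the adjusted p was 0.0980 for MALP2 and 0.0838 for N-9, and the calls were lost on leaving out MALP2 replicate 1, 2 or 3 (adjusted p up to 0.129) or N-9 replicate 3, 4, 5 or 6 (up to 0.108). Without N-9 replicates 4 to 6 the N-9 value was -0.55, and without MALP2 replicates 1 to 3 the MALP2 value was 0.73. N-9 minus MALP2 differed from 0 (-2.21 ± 0.49, adjusted p = 0.000615), also with the random block (adjusted p = 0.00256). The TNF-α arrays read 10.06, 10.41, 10.52, 7.87 and 8.06, which put replicates 1 to 3 well above replicates 4 and 5.

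**Figure D2:**
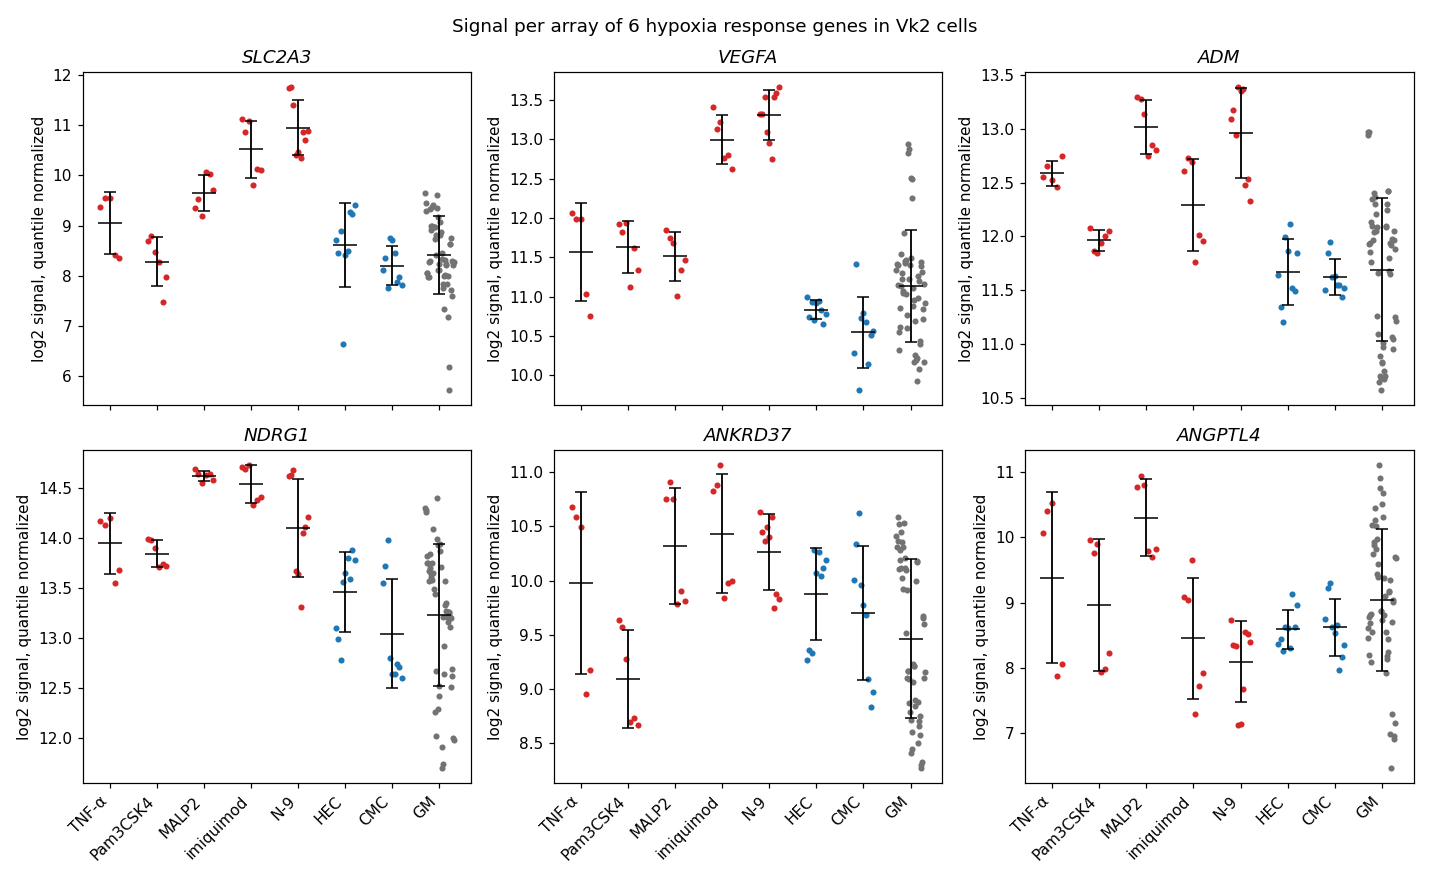
Log2 signal of every array (points) for 6 hypoxia response genes, with the mean and SD of each group (bars), PIC in red, NIC in blue and GM in grey. All N-9 and imiquimod arrays of SLC2A3 lie above the GM arrays, whose highest is 9.66, and the TNF-α arrays of VEGFA, ANKRD37 and ANGPTL4 split into replicates 1 to 3 and replicates 4 and 5.

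In the group of mitophagy and stress genes, NDRG1, a gene induced by hypoxia and cell stress, rose with 3 treatments. Its lowest, median and highest signals were 14.55, 14.64 and 14.70 with MALP2, 14.33, 14.55 and 14.73 with imiquimod, 13.31, 14.11 and 14.69 with N-9, and 11.70, 13.34 and 14.41 in GM. Of these, MALP2 arrays did not overlap with GM, and 4 of 6 imiquimod and 3 of 9 N-9 arrays lay above it. The log2 fold change was 1.39 ± 0.25 with MALP2 (2.62-fold, adjusted p = 2.87e-05), 1.31 ± 0.25 with imiquimod (2.47-fold, adjusted p = 5.28e-05) and 0.87 ± 0.21 with N-9 (1.83-fold, adjusted p = 0.00113). The N-9 call did not hold without N-9 replicates 1 to 3 (0.60, adjusted p = 0.101). GM replicates 1 to 9 lay high in NDRG1 too, at 13.58 to 14.30 against a GM mean of 13.24. N-9 replicates 4 to 6 read 13.67, 13.65 and 13.31, below GM replicates 4 to 6 at 13.82, 13.75 and 13.75. N-9 replicates 1 to 3 and 7 to 9 lay above the GM replicates of the same numbers. BNIP3L, a receptor that targets mitochondria for autophagy, rose 1.79-fold with imiquimod (0.84 ± 0.16, adjusted p = 6.42e-05), with arrays between 11.73 and 11.96 against 10.43 to 12.15 in GM. With MALP2 it read 0.49 ± 0.16 (adjusted p = 0.0480, and 0.187 with the random block), a call that leaving out any MALP2 array but replicate 5 ended (adjusted p up to 0.159). BNIP3, a related receptor whose promoter held 6 matches of the core motif, counted on both strands, was not called. It read 0.66 with imiquimod, 0.49 with MALP2 and -0.47 with N-9, and its smallest adjusted p was 0.0549. The difference N-9 minus imiquimod in BNIP3 was -1.13 ± 0.29 (adjusted p = 0.00451).

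Among HIF and the genes that control it or respond with it, ANKRD37, an ankyrin repeat gene induced by HIF, rose with MALP2 (0.85 ± 0.28, adjusted p = 0.0438), imiquimod (0.97 ± 0.28, adjusted p = 0.0113) and N-9 (0.80 ± 0.23, adjusted p = 0.00845). Its lowest, median and highest signals were 9.78, 10.33 and 10.91 with MALP2, 9.84, 10.41 and 11.07 with imiquimod, 9.75, 10.40 and 10.63 with N-9, and 8.27, 9.22 and 10.59 in GM. Each of these treated arrays was above the GM median, and 3 of 6, 3 of 6 and 2 of 9 were above every GM array. GM replicates 1 to 9 lay high in this gene, and against them alone the values were -0.04 with MALP2 and -0.09 with N-9. With the random block the N-9 and imiquimod calls held (adjusted p = 0.0219 and 0.0300) and the MALP2 call did not (0.107). Without N-9 replicates 1 to 3 or 4 to 6 the N-9 call was lost (adjusted p = 0.0908 and 0.0846). Without imiquimod replicates 1 to 3 the imiquimod value was 0.48 (adjusted p = 0.641). Leaving out MALP2 replicate 1, 2, 3 or 5 (adjusted p up to 0.169) or imiquimod replicate 1, 2 or 3 (up to 0.0726) ended those calls, and the other, dimmer ANKRD37 probeset read -0.62, -0.09 and 0.50 with the 3 treatments.

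HIF1A, the oxygen-regulated subunit of HIF, rose slightly with Pam3CSK4 (0.29 ± 0.08, adjusted p = 0.0190) and imiquimod (0.22 ± 0.08, adjusted p = 0.0419). Its arrays read 14.31 to 14.49 with Pam3CSK4 and 14.18 to 14.46 with imiquimod, against 13.83 to 14.55 in GM, so all lay inside the GM range. With the random block the adjusted p was 0.118 and 0.140, and leaving out Pam3CSK4 replicate 1, 5 or 6 (up to 0.0793) or any imiquimod array but replicate 2 (up to 0.130) ended the calls. Because oxygen controls HIF mainly through the protein, these RNA signals do not measure its activity. EGLN1, the prolyl hydroxylase that marks HIF1A for destruction, fell with N-9 (-0.69 ± 0.18, adjusted p = 0.00236), with a lowest, median and highest signal of 9.29, 10.10 and 11.49 with N-9 and 10.02, 10.88 and 12.00 in GM. Its N-9 runs lay at 0.06, -1.25 and -0.88 from the GM mean, and without N-9 replicates 4 to 6 the value was -0.41 (adjusted p = 0.175). The 3 other EGLN1 probesets read -0.47 to -0.17 with N-9 and were not called. EGLN3, a hydroxylase of the same family that HIF itself induces, fell with N-9 (-0.67 ± 0.18, adjusted p = 0.00397, and 0.0708 with the random block). Its other probeset read -0.55 and was not called. Without N-9 replicates 4 to 6 or 7 to 9 the EGLN3 call was lost (adjusted p = 0.0711 and 0.0671). The difference N-9 minus imiquimod in EGLN1 was -1.30 ± 0.26 (adjusted p = 0.000188), also with the random block (adjusted p = 0.00643).

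MXI1, a repressor of MYC targets, rose with imiquimod (0.72 ± 0.21, adjusted p = 0.0110) and fell with MALP2 (-0.63 ± 0.21, adjusted p = 0.0445). Signals at the lowest, median and highest array were 10.77, 10.79 and 11.20 with imiquimod, 8.91, 9.49 and 10.34 with MALP2, and 9.08, 10.14 and 11.27 in GM. The imiquimod arrays all stood above the highest MALP2 array, and the difference between the compounds was 1.35 ± 0.28 (adjusted p = 0.000937, and 0.0199 with the random block). Against GM the adjusted p with the random block was 0.0667 for imiquimod and 0.216 for MALP2, and leaving out imiquimod replicate 3 (0.0559) or MALP2 replicate 2, 3, 4, 5 or 6 (up to 0.217) ended the call. On imiquimod arrays the ACTB 3' probeset exceeded the 5' probeset, a ratio that grows with RNA degradation, by 0.96 ± 0.52 on the log2 scale (SD, n = 6), against 0.44 ± 0.24 in GM (n = 53), and its part in the imiquimod results was not tested.

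Of the 5 glycolysis regulators, PFKFB2, which makes the activator of phosphofructokinase fructose 2,6-bisphosphate, rose 1.69-fold with imiquimod (0.76 ± 0.15, adjusted p = 8.73e-05). Its lowest, median and highest signals were 9.36, 9.57 and 9.64 with imiquimod and 8.14, 8.69 and 9.44 in GM, with 4 of 6 imiquimod arrays above every GM array. PDK4, a kinase that restrains pyruvate entry into mitochondria, rose 2.38-fold with N-9 (1.25 ± 0.36, adjusted p = 0.00687), but its signal was low, at 4.36, 5.40 and 6.17 with N-9 and 1.41, 4.22 and 6.46 in GM. The 2 other PDK4 probesets were not called and the adjusted p with the random block was 0.232. With TNF-α, PDK4 read 4.50, 6.27, 5.42, 5.72 and 5.12, a log2 fold change of 1.24 that did not pass. PFKFB3, PFKFB4 and PDK1, which HIF is known to induce, were not called with any treatment, with PFKFB4 between -0.94 with N-9 (adjusted p = 0.0531) and 0.73 with MALP2.

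At most 1 of the 14 glycolytic enzymes was called with any treatment other than N-9, which does not show that their changes were small. LDHA, which makes lactate, was the only enzyme called with MALP2 (0.14 ± 0.05, adjusted p = 0.0494, and 0.250 with the random block), where 3.28% of all probesets rose. Leaving out any of the 6 MALP2 arrays ended this call (adjusted p up to 0.161). With TNF-α, Pam3CSK4, imiquimod, HEC or CMC 0 of 14 were called, with 2, 2, 1, 1 and 1 at an unadjusted p under 0.05. With TNF-α 0.526% of all probesets rose and 0.196% fell, with Pam3CSK4 1.31% and 0.859%, and with imiquimod 4.68% and 6.19%. These shares were 0.328% and 0.465% with HEC, and 0% and 0.00183% with CMC. With N-9, 7 of 14 fell, where 10.1% of all probesets fell. These were PFKM by 0.46, ENO1 by 0.36, TPI1 by 0.28, PGAM1 by 0.26, ALDOA by 0.21, PGK1 by 0.19 and LDHA by 0.16 on the log2 scale. A negative value was found for 13 of 14, while 49.0% of all probesets had a positive one. PFKM is the muscle type phosphofructokinase, ALDOA an aldolase, TPI1 triosephosphate isomerase, PGK1 and PGAM1 act on the phosphoglycerates and ENO1 is an enolase. Without quantile normalization of the deposited values only PFKM fell (adjusted p under 0.05), ALDOA, ENO1, PGAM1, PGK1 and TPI1 were no longer called, and LDHA turned to 0.14 (adjusted p = 0.342). On those values the median of all probesets lay 0.16 above GM on N-9 arrays and 0.13 above it on HEC arrays.

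PGAM1 gave the tightest of these falls (-0.26 ± 0.04, adjusted p = 2.12e-07), with 13.44, 13.47 and 13.58 as lowest, median and highest signal with N-9 and 13.56, 13.76 and 13.93 in GM, and 8 of 9 N-9 arrays below every GM array. Its 3 runs lay at -0.25, -0.23 and -0.30. PFKM had 10.06, 11.21 and 11.39 with N-9 and 10.63, 11.42 and 11.81 in GM, and its fall (-0.46 ± 0.11, adjusted p = 0.000497) came from replicates 1 to 3 at -1.23, against -0.11 and -0.05 in the other runs, so that without them it read -0.08 (adjusted p = 0.702). ENO1 had 13.39, 13.98 and 14.20 with N-9 and 13.82, 14.22 and 14.70 in GM (-0.36 ± 0.07, adjusted p = 1.67e-05), and without N-9 replicates 1 to 3 it read -0.16 (adjusted p = 0.126), while 1 other ENO1 probeset was positive, at 0.36. TPI1 had 13.15, 13.35 and 13.62 with N-9 and 13.31, 13.62 and 13.91 in GM (-0.28 ± 0.06, adjusted p = 0.000490), and its call held with each run left out. The ALDOA call was lost with the random block (adjusted p = 0.150) and on leaving out N-9 replicate 1, 2, 3, 7, 8 or 9 (up to 0.206). PGK1 and LDHA lost their calls without N-9 replicates 4 to 6 (adjusted p = 0.0804 and 0.0519). ENO2, the neuronal enolase, was the most variable enzyme, from 2.58 to 9.83 in GM, and its values of 1.22 with MALP2 and -1.22 with CMC did not pass.

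**Figure D3:**
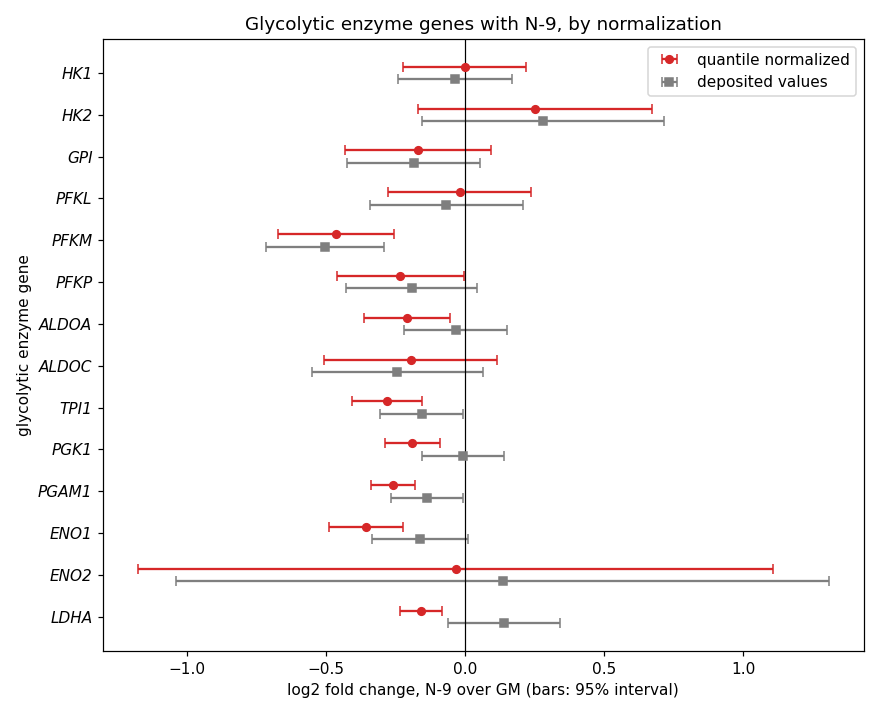
Log2 fold change with N-9 over GM (points) and its 95% interval (bars) for the 14 glycolytic enzyme genes, on quantile normalized values (circles) and on the deposited values without it (squares). PFKM alone is called in both, at -0.46 on normalized values, while LDHA and ENO2 change sign between them.

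P4HA1 and P4HA2, subunits of the prolyl hydroxylase that stabilizes collagen, were not called with any treatment, with values of -0.39 and -0.34 with N-9. The 14 genes that were not called with any treatment spanned -1.22 to 1.22, both ends being ENO2.

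The 34 genes varied in GM itself. The range over the 53 GM arrays went up to 7.25 (ENO2), with 0.37 the narrowest, in log2 units. The median gene had 91.3% of its GM variance between the 18 runs of replicates, against 57.4% for all probesets and 32.7% for arrays that were independent. PDK4, with a GM mean signal of only 4.16, was the exception at 25.0%, and the other 33 genes were above 70%. The genes were read from their brightest probesets, while all probesets include dim ones. The share was not compared at matched signal, so whether it is particular to these genes was not tested. GM replicates 1 to 3 held the highest run mean for 11 of 34 genes and were above the GM mean for 29, while replicates 53 and 54 were above it for 3. PDK1 had run means of 9.72 to 11.85 in GM and ANGPTL4 6.92 to 10.92.

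In the treated groups, too, some genes followed the run. PFKFB4 differed from the GM mean by 2.11 in MALP2 replicates 1 to 3 and by -0.64 in replicates 4 to 6, by 0.96 and -0.98 in the 2 TNF-α runs, and by 1.09 and -1.13 in the 2 imiquimod runs. VEGFA was up in every run of imiquimod (2.12 and 1.59) and N-9 (2.26, 1.79 and 2.46). Every run of a treatment lay above all GM run means for 2 N-9 genes, 3 imiquimod genes and 2 MALP2 genes, and below them for 1 N-9 gene. There were 0 such genes with TNF-α, Pam3CSK4, HEC and CMC. These counts were not made for all probesets, so whether other genes would give as many was not tested. Of 32 calls with MALP2, imiquimod or N-9, 11 held with each run left out in turn, an analysis chosen after the run means were seen. ADM with MALP2 and N-9, BNIP3L with imiquimod, and SLC2A3 and VEGFA with imiquimod and N-9, 7 of the 33 calls, held in each of the 8 settings that refit single genes and with each array or run of the treatment left out. The analysis of variance was run only with the limit of 2-fold, which BNIP3L with imiquimod does not reach at 1.79-fold.

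**Figure D4:**
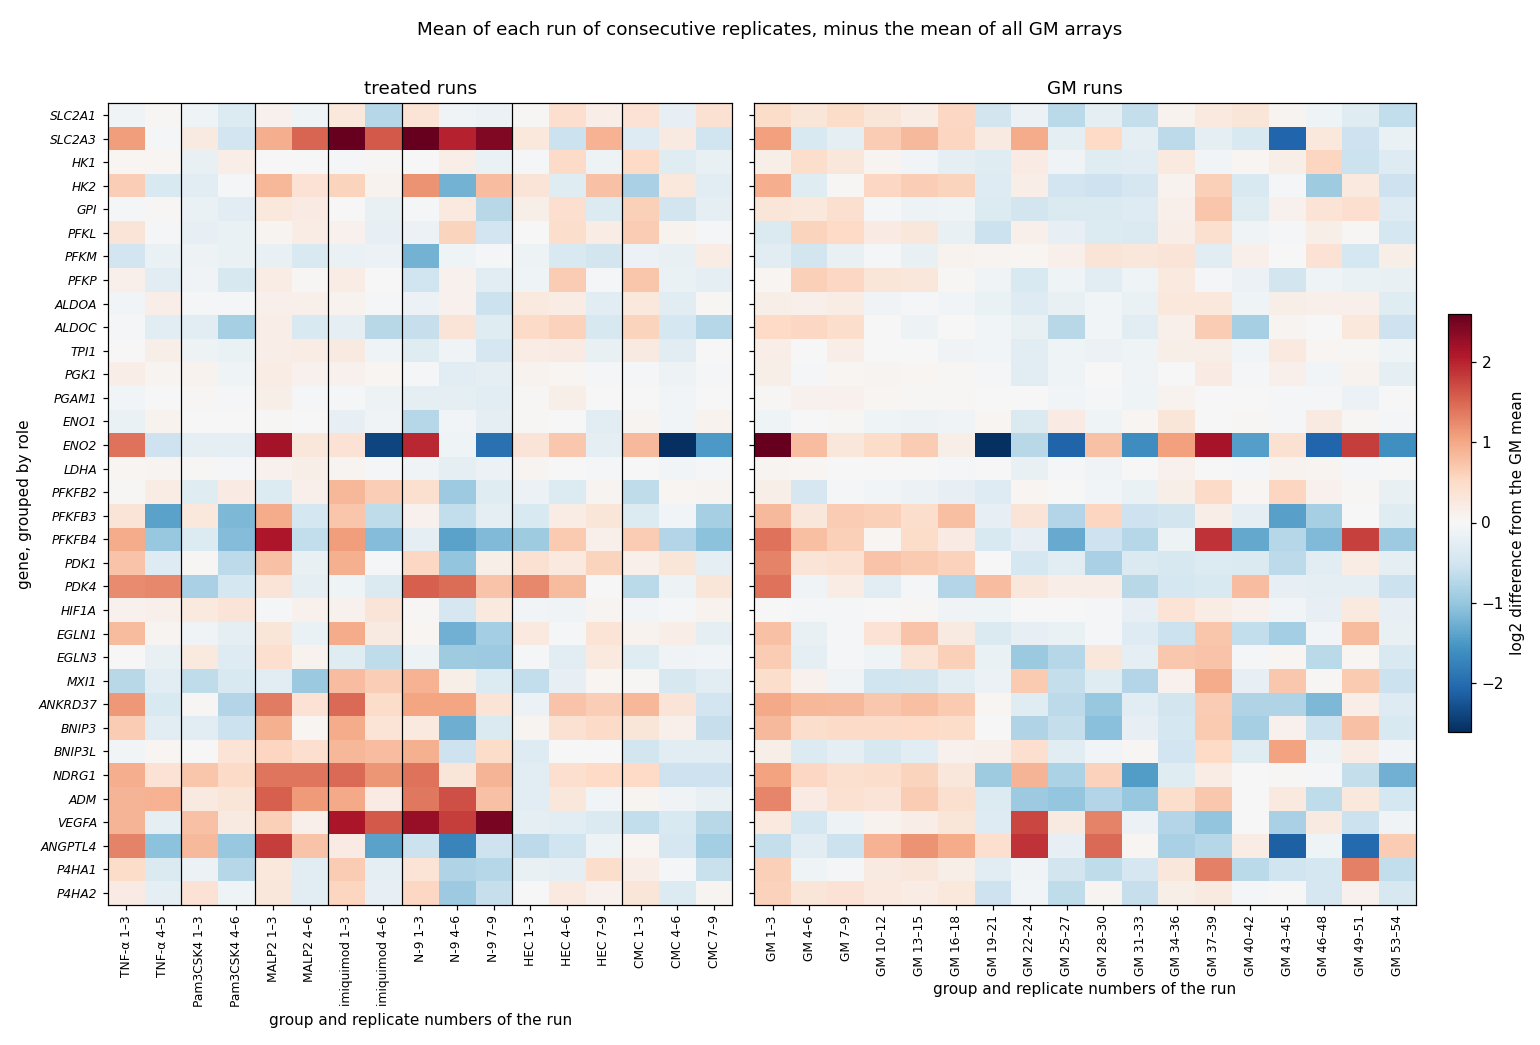
Mean of each run of consecutive replicate numbers minus the mean of the 53 GM arrays, on the log2 scale, for the 34 genes (down) in treated runs (left) and GM runs (right). SLC2A3 and VEGFA are raised in all imiquimod and N-9 runs, at 1.59 to 3.23, while PFKFB4 changes sign between runs of MALP2, TNF-α and imiquimod.

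The compounds were then compared directly in the same limma fit, in 11 pairs with adjustment over all probesets. Doses are given in the opening and differ between the PIC, so only the pair HEC and CMC has a matched dose. Over the 11 pairs 54 differences passed, and 29 with the run as a random block. N-9 differed from MALP2 in 14 genes (3 higher and 11 lower with N-9), against 13.1% of all probesets, from Pam3CSK4 in 10 (11.3%), from imiquimod in 9 (10.8%) and from TNF-α in 7 (7.77%). Imiquimod differed from Pam3CSK4 in 6 genes (3.02% of all probesets), from MALP2 in 4 (2.05%) and from TNF-α in 4 (2.32%). MALP2 differed from Pam3CSK4 in 0 (0.209%, with 14 at an unadjusted p under 0.05), MALP2 from TNF-α in 0 (0.249%, with 2) and Pam3CSK4 from TNF-α in 0 (0%, with 5). VEGFA was higher with imiquimod than with MALP2 by 1.48 ± 0.33 (adjusted p = 0.00336) and higher with N-9 than with MALP2 by 1.80 ± 0.30 (adjusted p = 4.28e-06).

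HEC and CMC, cellulose ethers that differ in carrying hydroxyethyl or carboxymethyl groups, were compared at the same dose and time. Of the 34 genes 0 differed (0% of all probesets, with 2 at an unadjusted p under 0.05). The differences, HEC minus CMC, lay between -0.29 for PFKM (95% interval -0.56 to -0.01, adjusted p = 0.688) and 1.47 for ENO2 (-0.02 to 2.97, adjusted p = 0.711), and the median interval reached 0.43 to either side. An equal level was therefore not shown for any of these genes, and least for those that vary as ENO2 does.

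Of 87 other genes of glycolysis, HIF control and hypoxia, 80 had a probeset. With N-9 8 of these 80 rose (10.0%, beside 7.35% of all probesets) and 10 fell (12.5%, beside 10.1%), so both shares were near those of all probesets. With imiquimod 11 rose (13.8%, beside 4.68%) and 5 fell (6.25%, beside 6.19%), and with MALP2 7 rose (8.75%, beside 3.28%) and 4 fell (5.0%, beside 3.66%). With Pam3CSK4 5 rose (6.25%, beside 1.31%) and 3 fell (3.75%, beside 0.859%). TNF-α and HEC each had 1 that rose and 1 that fell (1.25% each, beside 0.526% and 0.196% for TNF-α and 0.328% and 0.465% for HEC), and CMC had 0 calls (0% and 0.00183% of all probesets). The medians of the 80 genes lay from -0.11 to 0.07. The 3 largest were ARNT2, a partner of HIF subunits, which rose 4.92-fold with imiquimod (2.30 ± 0.50, adjusted p = 0.000453), IGFBP3, a carrier of insulin-like growth factors, which rose 4.38-fold with MALP2 (2.13 ± 0.34, adjusted p = 1.59e-06), and PPP1R3C, a regulator of glycogen synthesis, which rose 3.71-fold with imiquimod (1.89 ± 0.24, adjusted p = 8.29e-10). All 3 passed with the random block, at adjusted p = 0.0341, 1.1e-05 and 1.98e-08.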

How the data were processed

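Total RNA of Vk2/E6E7 cells was hybridised to Affymetrix arrays. The authors deposited 1 value table of log2 signals, with MAS5 and GCOS 1.3 named in the submitters' processing notes, whereas the study's methods describe RMA in GeneSpring. Array medians ranged between 6.22 and 7.08, and on every array but TNF-α replicate 6, 100% of signals lay on steps of 0.1 on the linear scale. As deposited, the values were thus rounded signals without quantile normalization, a step that RMA includes. Any further processing before deposition was not settled here. The deposited log2 signals were quantile normalized here, control probesets were left out (62 of 54675), and 1 mean per group was fitted in limma 3.58.1 under R 4.3.3 over 103 arrays. A gene was read from its probeset of highest mean among probesets listed with that gene alone (41097 probesets have 1 gene, 1801 several and 11777 none). Genes described in full were those over 2-fold with a treatment and the 2 further called genes of each role group with the largest change. The members and the lists were chosen with earlier results of these data known. Alternatives were no normalization, a filter at log2 6, an offset of 16, the mean over probesets, all 105 arrays, a run block (correlation 0.44), GM replicates 1 to 9, each array left out and the methods' analysis of variance. Runs left out were added after seeing the data. Of arrays, no depth exists, and their number limits the precision: the median 95% interval of a gene against GM reached 0.35 to either side.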

Additional observations from a re-analysis of the deposited data

Results flagged for a closer look

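MXI1 with imiquimod had 1 array apart from the rest: replicate 3 read 11.20, with the next at 10.91 and the lowest at 10.77, and its gap to the next was the 0.68 part of the range. In all, 33 groups of 4 to 10 arrays were tested in this way. Chance sets apart about 1 in 20 such groups, or 1.65 here, and 1 was found.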

How the results depend on the processing

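Counts of called genes depended on the arrays and controls used. Outside the random block, the share of all probesets called was not computed in these settings. Whether a change in these counts is particular to these genes was therefore not tested. The fit on all 105 arrays holds GM replicate 52, which correlated at most at 0.05 with any other array. Without quantile normalization N-9 called 10 (against 16), TNF-α and HEC 1 each and Pam3CSK4 0. With all 105 arrays MALP2 called 2, N-9 6 and Pam3CSK4 0, and differences between compounds were 19. The random block for runs gave 3 with MALP2, 0 with Pam3CSK4 and 29 differences. The mean over probesets gave 5 with MALP2, and the filter on dim probesets 1 with TNF-α. Leaving out 1 array gave 3 to 5 with MALP2, 15 to 19 with N-9, 5 to 8 with imiquimod, 0 to 1 with Pam3CSK4 and 0 with TNF-α, HEC and CMC. Leaving out MALP2 replicates 1 to 3 or 4 to 6 gave 4 and 5. Over single arrays left out, 201 of 246 calls kept their direction and threshold, 45 lost it and 0 turned. Replicate numbers were not treated as pairs, since no treatment had every same-numbered correlation with GM over 0.1. N-9 and HEC replicates 1 to 6 did, at 0.25 to 0.33 and 0.26 to 0.34, as did 1 of 5 with TNF-α and 0 elsewhere. The main test did not use this likeness of N-9 and HEC arrays to same-numbered GM arrays. The fit on GM replicates 1 to 9 with a replicate block did, and there 24 of the 33 calls held, 6 were lost and 3 changed direction. Against GM replicates 1 to 9, without and with the replicate block, CMC called 5 and 8, Pam3CSK4 12 and 16, TNF-α 1 and 6, and imiquimod 13 with the block. The share of all probesets called was not computed against GM replicates 1 to 9. Whether these higher counts are particular to these genes was therefore not tested. Against those GM arrays ANKRD37 turned to -0.041 and -0.164 with MALP2, -0.0946 and -0.0946 with N-9, and -0.050 with imiquimod under the block. LDHA with N-9 turned to 0.14 without normalization. The cause of these changes was not tested.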
